A study of Mus musculus with 18 samples.

Results

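Activins, TGF-beta and bone morphogenetic proteins are secreted ligands of one superfamily, and 10 of its genes were described in injured mouse kidneys. They were chosen from a list by name and not by a threshold, out of 45706 genes counted. The list was drawn up with earlier results of these kidneys known, so that every value below that sets KO against control kidneys is a description and not independent evidence. The genes are the activin subunits *Inhba* and *Inhbb*, the activin antagonists *Fst* and *Fstl3*, the ligands *Tgfb1*, *Tgfb2*, *Tgfb3*, *Bmp7* and *Gdf15*, and the activin receptor *Acvr2a*. All 10 were found in the count files by their Ensembl identifier and passed the filter on low counts in every comparison.

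Whole kidneys of C57BL/6 mice (so labelled, with floxed lines on C57BL/6J in the study's methods) had been removed after bilateral ischemia of 22.5 min and reperfusion for 12 h (I/R injury). The 4 groups were *Cxcl12* KO (n = 5), *Cxcl12* control (n = 3), *Myc* KO (n = 5) and *Myc* control (n = 5), and the mice were adult male littermates. All mice of a cohort carried the floxed *Cxcl12* or *Myc* alleles and the Pax8rtTA transgene and received doxycycline. Only KO mice also carried TetOCre, so the excision was limited to Pax8-expressing tubule cells, while RNA came from the whole organ. No uninjured kidney was analysed here, so nothing below measures the effect of the injury itself. The reads on genes numbered 12918220 in the shallowest and 29749500 in the deepest kidney. The deleted genes were lower in their own KO kidneys, *Cxcl12* with a log2 fold change of -0.73 and *Myc* with -1.61. Markers of every tubule segment were found in every group. Those of T cells lay under 1 CPM per gene (CPM, reads on a gene relative to all reads on genes after scaling), and *Mpo* of neutrophils was at 0. The share of unmapped reads was under 5% in 6 kidneys, 2 of them *Cxcl12* KO, 2 *Myc* KO and 2 *Myc* control. This mapping class is not named in the labels, and it is given below where it bears on a value.

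Most ligands of this superfamily, though not all, bind pairs of type I and type II serine/threonine kinase receptors. Activins and TGF-betas signal mainly through SMAD2 and SMAD3, and bone morphogenetic proteins through SMAD1, SMAD5 and SMAD9. Follistatin, encoded by *Fst*, and its relative FSTL3 bind activins outside the cell and keep them from their receptors. In the kidney, activin A and TGF-beta are known for their part in tubule injury and fibrosis, and BMP7 for its role in nephron formation.

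Only the activin subunits stood out among the 10 genes. *Inhba* was higher in *Myc* KO than in *Myc* control kidneys, by 2.28-fold, and was the only one of the 10 with an adjusted p under 0.05 in either cohort. *Inhbb* was 1.92-fold higher in *Cxcl12* KO and 1.67-fold higher in *Myc* KO kidneys by the fitted values, with an adjusted p above 0.05 in each cohort. The mean of the KO effects of both cohorts passed the threshold for *Inhbb*. None of the other 8 genes, the antagonists *Fst* and *Fstl3* among them, passed it in any comparison.

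*Inhba* encodes the beta A subunit, which forms activin A as a dimer. It lies on the plus strand of chromosome 13 (GRCm38) from 16011851 to 16031621. In *Myc* KO kidneys it had 9.02, 11.3, 11.8, 8.63 and 5.59 CPM in replicates 1 to 5. The *Myc* control kidneys had 2.85, 5.18, 5.18, 2.96 and 4.15 CPM. Every *Myc* KO kidney lay above every *Myc* control kidney, and the closest pair was KO replicate 5 and control replicate 3. The means were 9.26 ± 2.47 CPM in *Myc* KO (SD, n = 5) and 4.06 ± 1.14 CPM in *Myc* control kidneys (SD, n = 5). The log2 fold change was 1.19 (standard error 0.231, 95% interval 0.68 to 1.69, adjusted p = 0.0291 in edgeR's quasi-likelihood test). Of all 14936 genes tested in this cohort, 246 or 1.65% passed the same threshold in either direction, 53 of them higher. All KO kidneys lay above all control kidneys for 306 genes or 2.05%. These levels rest on 48 to 258 reads per *Myc* kidney.

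The higher level of *Inhba* was present in both mapping classes of the *Myc* cohort. Among kidneys with over 5% unmapped reads it ran from 8.63 to 11.3 CPM in 3 KO and from 2.96 to 5.18 CPM in 3 control kidneys. Among the others it had 5.59 and 11.8 CPM in 2 KO and 2.85 and 5.18 CPM in 2 control kidneys. The adjusted p went above 0.05 in 4 of 10 other settings and in 6 of 10 fits that left out 1 kidney. Its highest value was 0.0982, without *Myc* KO replicate 3, with log2 fold changes from 1.07 to 1.33 over the fits without 1 kidney.

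In the *Cxcl12* cohort the same gene varied too much among kidneys to be told apart between the groups. It had 1.98, 3.71, 9.26, 10.2 and 3.72 CPM in *Cxcl12* KO replicates 1 to 5 and 6.42, 3.01 and 1.91 CPM in the 3 controls. The ranges overlapped throughout, and KO replicates 3 and 4 alone lay above the highest control. The log2 fold change of *Inhba* there was 0.58 (standard error 0.536, 95% interval -0.60 to 1.76, adjusted p = 0.672 in edgeR's test). Both *Cxcl12* KO kidneys with under 5% unmapped reads were among the 3 KO kidneys with less than 4 CPM, and no *Cxcl12* control had under 5% unmapped reads, so that the class and the genotype cannot be compared within it. Among *Cxcl12* kidneys with over 5% unmapped reads, *Inhba* had 3.72 to 10.2 CPM in 3 KO and 1.91 to 6.42 CPM in 3 control kidneys. With the mapping class as a term the log2 fold change was 1.02 (edgeR adjusted p = 0.365). Leaving out *Cxcl12* control replicate 1 gave 1.19, and leaving out *Cxcl12* KO replicate 4 or *Cxcl12* control replicate 3 gave 0.26.

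The KO effects on *Inhba* were not shown to differ between the cohorts. The difference, *Myc* minus *Cxcl12*, was 0.61 log2 units (95% interval -0.63 to 1.84, edgeR adjusted p = 0.762). In that comparison 11 of 15903 genes or 0.0692% passed the threshold, and 0 of the 10 genes did. The interval of *Inhba* was the widest of the 10, and it includes both no difference and a difference larger than the *Myc* effect itself.

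*Inhbb* encodes the beta B subunit of activin B. It lies on the minus strand of chromosome 1 from 119415465 to 119422248. *Cxcl12* KO kidneys had 74.3, 86.0, 95.6, 117 and 124 CPM in replicates 1 to 5, and the 3 *Cxcl12* controls had 35.1, 63.0 and 56.7 CPM. All 5 KO kidneys lay above the highest control. The means were 99.3 ± 20.8 CPM in *Cxcl12* KO (SD, n = 5) and 51.6 ± 14.6 CPM in *Cxcl12* control kidneys (SD, n = 3). The log2 fold change was 0.94 (standard error 0.207, 95% interval 0.48 to 1.40, unadjusted p = 0.000859 and adjusted p = 0.106 in edgeR's test). In this cohort 0 of 15154 genes, that is 0%, passed the adjusted threshold, and the smallest adjusted p of any gene was 0.0617. At an unadjusted p under 0.05 there were 1975 genes or 13%, and DESeq2 called 355 or 2.34%. All KO kidneys lay above all control kidneys for 752 genes or 4.96%, and *Inhbb* was the only one of the 10 with that pattern in the *Cxcl12* cohort. DESeq2 gave *Inhbb* an adjusted p of 0.00129, and the range over 10 other settings was 0.00129 to 0.181.

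The lower values of *Inhbb* among *Cxcl12* KO kidneys, 74.3 and 86.0 CPM, were those with under 5% unmapped reads. Among kidneys with over 5%, the 3 KO had 95.6 to 124 CPM and the 3 controls 35.1 to 63.0 CPM. With the mapping class as a term the log2 fold change of *Inhbb* was 1.11 (edgeR adjusted p = 0.0371). The summed level of 6 markers of injured tubule was also higher in *Cxcl12* KO kidneys, with 12665 to 18735 CPM against 9903 to 11772 CPM in the controls, a list in which *Spp1* made up 82.0% of the mean sum and 0 of the 6 genes was called. The summed level of 6 proximal tubule markers was lower there, with 3637 to 4032 CPM in *Cxcl12* KO against 4276 to 4941 CPM in the controls, and 0 of these 6 was called. The summed neutrophil markers, given below, also lay above all controls in every *Cxcl12* KO kidney. The part of any of these lists in the *Inhbb* difference was not tested. In whole-kidney RNA, a change in the number of cells that express a gene and a change in RNA per cell cannot be told apart.

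*Myc* KO kidneys had 119, 134, 166, 219.5 and 166 CPM of *Inhbb*, and *Myc* control kidneys had 65.1, 94.2, 146, 60.3 and 117 CPM. Control replicate 3 lay above KO replicates 1 and 2, and the other 4 controls lay below every KO kidney. The means were 161 ± 38.7 CPM in KO (SD, n = 5) and 96.5 ± 35.9 CPM in control kidneys (SD, n = 5). The log2 fold change of *Inhbb* in the *Myc* cohort was 0.74 (standard error 0.237, 95% interval 0.23 to 1.25, adjusted p = 0.116 in edgeR's test). Without *Myc* control replicate 3 it was 0.94 with an adjusted p of 0.033. In *Myc* kidneys with over 5% unmapped reads, *Inhbb* ran from 119 to 219.5 CPM in 3 KO and from 60.3 to 117 CPM in 3 control kidneys. With under 5%, both KO kidneys had 166 CPM and the controls 65.1 and 146 CPM. In both classes every KO kidney lay above every control kidney of its class. In the class with over 5% the gap was narrow, 118.6 CPM in KO replicate 1 against 117.1 CPM in control replicate 5. The share of all genes with such a pattern within classes was not counted.

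The KO effects on *Inhbb* in the cohorts differed by -0.21 log2 units, *Myc* minus *Cxcl12* (95% interval -0.95 to 0.53, edgeR adjusted p = 0.884). Their mean over all 18 kidneys was 0.84 log2 units (standard error 0.180, 95% interval 0.46 to 1.22, adjusted p = 0.0222 in edgeR's test). For the mean of both effects, a contrast added after the data had been seen, 625 of 15903 genes or 3.93% passed the threshold, and *Inhbb* was the only one of the 10. The mean effect on *Inhba* was 0.88 log2 units (standard error 0.300, edgeR adjusted p = 0.0897). A KO group lying wholly above its controls in both cohorts was found for 55 of 14727 genes or 0.373%, and for 0 of the 10. Without *Cxcl12* control replicate 1 the mean effect on *Inhbb* was 0.73 with an adjusted p of 0.0754.

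**Figure D1:**
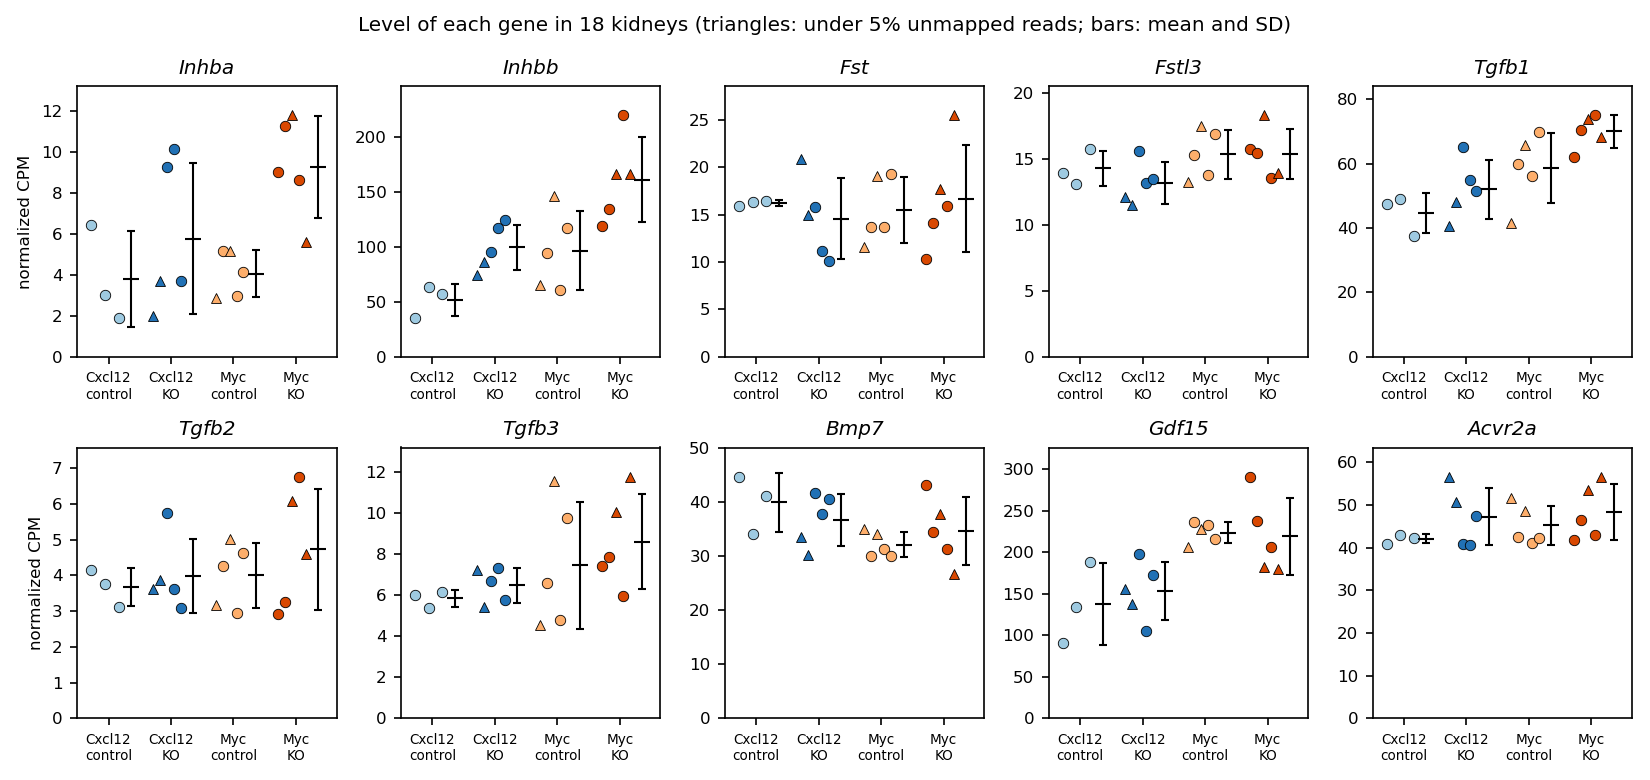
Each panel plots 1 gene in normalized CPM, with a point for every kidney in replicate order, triangles for kidneys with under 5% unmapped reads, and the group mean with its SD beside the points. The 5 *Myc* KO kidneys all lie above the 5 *Myc* controls for *Inhba* (5.59 to 11.8 against 2.85 to 5.18 CPM), and the 5 *Cxcl12* KO kidneys all lie above the 3 controls for *Inhbb* (74.3 to 124 against 35.1 to 63.0 CPM), while the groups overlap for the other 8 genes in each cohort.

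The promoters of both subunit genes are shown because these were the genes with the largest fitted KO effects of the 10, and that of *Tgfb2* because it holds an E-box, CACGTG, the hexamer bound by MYC with its partner MAX. The sequences come from RefSeq on GRCm38.p6, where 7 of the 10 genes had 8 entries, and each is the 250 bases before the annotated start, 5′ to 3′ on the gene's strand, with the E-box in capitals.
*Inhba* (chr13:16011601-16011850, plus strand): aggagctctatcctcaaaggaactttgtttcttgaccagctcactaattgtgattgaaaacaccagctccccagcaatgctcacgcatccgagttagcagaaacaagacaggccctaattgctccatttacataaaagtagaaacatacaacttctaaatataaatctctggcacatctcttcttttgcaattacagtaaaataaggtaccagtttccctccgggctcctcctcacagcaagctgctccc
*Inhbb* (chr1:119422249-119422498, minus strand): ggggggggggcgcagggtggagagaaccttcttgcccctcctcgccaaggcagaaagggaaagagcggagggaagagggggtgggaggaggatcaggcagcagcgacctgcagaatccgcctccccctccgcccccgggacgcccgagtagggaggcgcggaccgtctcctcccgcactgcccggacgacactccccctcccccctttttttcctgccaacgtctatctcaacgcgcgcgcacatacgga
*Tgfb2* (chr1:186705990-186706239, minus strand): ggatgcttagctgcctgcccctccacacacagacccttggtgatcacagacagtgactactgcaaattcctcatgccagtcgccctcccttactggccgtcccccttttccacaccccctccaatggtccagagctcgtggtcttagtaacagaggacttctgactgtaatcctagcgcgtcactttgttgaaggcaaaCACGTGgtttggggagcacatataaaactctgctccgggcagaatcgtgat
These windows differed in composition, with 43.2% G and C in *Inhba*, 68% in *Inhbb* and 53.6% in *Tgfb2*, against a median of 52.4% over all entries. The E-box of *Tgfb2* begins 51 bases before its start, and the other CACGTG lay 83 bases before one of both *Gdf15* starts. CACGTG, a palindrome, was in 1978 of 32851 windows or 6.02%. None of the *Inhba* and *Inhbb* windows held CACGTG, nor on either strand TGACGTCA (the cAMP response element, in 1.55% of windows), TGANTCA (the AP-1 site, 6.75%), GTCTAGAC (a palindromic SMAD site, 0.167%) or TGATGNAA (an element bound by ATF4, 3.45%). An absent match says only that these letters are not in these windows.

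Both activin antagonists overlapped between KO and control kidneys in each cohort. *Fst*, follistatin, had 20.9, 14.9, 15.9, 11.2 and 10.1 CPM in *Cxcl12* KO and 15.9, 16.4 and 16.4 CPM in *Cxcl12* control kidneys. The controls of *Fst* lay within a span of less than 1 CPM, and 2 of the 5 KO kidneys fell below 12 CPM. *Myc* KO kidneys had 10.3, 14.1, 17.7, 15.9 and 25.5 CPM of *Fst*, and *Myc* controls 11.6, 13.7, 19.1, 13.7 and 19.3 CPM. The log2 fold changes of *Fst* were -0.15 (95% interval -0.61 to 0.30) in *Cxcl12* KO and 0.12 (95% interval -0.35 to 0.60) in *Myc* KO, and each changed sign in at least 1 other setting. KO kidneys with under 5% unmapped reads had the highest *Fst* in both cohorts, 20.9 CPM in *Cxcl12* KO replicate 1 and 25.5 CPM in *Myc* KO replicate 5. Without the kidneys of that class the log2 fold change of *Fst* was -0.41 in *Cxcl12* KO and -0.20 in *Myc* KO, neither past the threshold.

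*Fstl3*, the follistatin relative, varied little. It ran from 11.5 to 15.6 CPM in *Cxcl12* KO and from 13.1 to 15.8 CPM in *Cxcl12* control kidneys. In the *Myc* cohort it ran from 13.5 to 18.3 CPM in KO and from 13.2 to 17.5 CPM in control kidneys. Its log2 fold changes were -0.12 (95% interval -0.40 to 0.15) and 0.01 (95% interval -0.24 to 0.25), and the sign of both depended on the setting. The intervals of *Fst* and *Fstl3* in the *Myc* cohort end at 0.60 and 0.25, below the lower bound of *Inhba*, 0.68. The difference between genes was not tested.

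The 3 TGF-beta ligands had fitted values above 0 in both cohorts, and none passed the threshold. *Tgfb1*, the most abundant of them, had 40.5, 48.0, 65.1, 54.8 and 51.5 CPM in *Cxcl12* KO and 47.5, 49.1 and 37.6 CPM in *Cxcl12* control kidneys. In *Myc* KO kidneys *Tgfb1* had 62.1, 70.5, 73.8, 75.1 and 68.3 CPM, and in *Myc* controls 41.5, 59.8, 65.9, 56.0 and 69.7 CPM. In the *Myc* cohort 3 KO kidneys lay above the highest control and the other 2 did not. The log2 fold changes of *Tgfb1* were 0.21 (95% interval -0.11 to 0.53) and 0.26 (95% interval -0.01 to 0.52), with adjusted p of 0.567 and 0.238 in edgeR's test. Their mean was 0.24 with an unadjusted p of 0.0305 and an adjusted p of 0.167.

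*Tgfb2* and *Tgfb3* were low. *Tgfb2* ran from 3.10 to 5.76 CPM in *Cxcl12* KO, from 3.11 to 4.15 CPM in *Cxcl12* control, from 2.93 to 6.77 CPM in *Myc* KO and from 2.96 to 5.01 CPM in *Myc* control kidneys, which rests on 37 to 148 reads. Its log2 fold changes were 0.10 (95% interval -0.39 to 0.59) and 0.25 (95% interval -0.28 to 0.78), and *Myc* KO kidneys spread more than their controls, with an SD of 1.69 against 0.905 CPM. *Tgfb3* ran from 5.42 to 7.33 CPM in *Cxcl12* KO and from 5.38 to 6.16 CPM in *Cxcl12* control kidneys. In the *Myc* cohort *Tgfb3* ran from 5.96 to 11.8 CPM in KO and from 4.55 to 11.6 CPM in control kidneys. The log2 fold changes of *Tgfb3* were 0.14 (95% interval -0.20 to 0.49) and 0.22 (95% interval -0.37 to 0.80). *Tgfb3* overlaps *Ttll5* on the opposite strand, and without strand a read on exons of both genes cannot be assigned to either.

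*Bmp7* and *Gdf15*, the more distant ligands, had fitted values on both sides of 0. *Bmp7* ran from 30.3 to 41.8 CPM in *Cxcl12* KO, from 34.1 to 44.8 CPM in *Cxcl12* control, from 26.7 to 43.3 CPM in *Myc* KO and from 30.1 to 35.1 CPM in *Myc* control kidneys. Its log2 fold changes were -0.13 (95% interval -0.40 to 0.15) and 0.11 (95% interval -0.14 to 0.36). *Gdf15*, a stress-induced cytokine, had 156, 138, 197, 105 and 172 CPM in *Cxcl12* KO and 90.8, 134 and 189 CPM in *Cxcl12* control kidneys. In *Myc* KO kidneys *Gdf15* had 291, 238, 183, 207 and 179 CPM, and in *Myc* controls 206, 236, 227, 232 and 216 CPM. The *Myc* controls were tight, and *Myc* KO kidneys lay on both sides of them. The log2 fold changes of *Gdf15* were 0.15 (95% interval -0.36 to 0.67) and -0.03 (95% interval -0.29 to 0.24). *Gdf15* was lower in each *Cxcl12* control than in any *Myc* control, and since the cohorts differ in their floxed gene and breeding, these cannot be told apart as the source of that difference.

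*Acvr2a*, the type II receptor that binds activins, ran from 40.7 to 56.6 CPM in *Cxcl12* KO and from 40.9 to 43.0 CPM in *Cxcl12* control kidneys. In the *Myc* cohort it ran from 41.8 to 56.7 CPM in KO and from 41.2 to 51.6 CPM in control kidneys. Its log2 fold changes were 0.17 (95% interval -0.09 to 0.42) and 0.10 (95% interval -0.12 to 0.32). The highest values of *Acvr2a* in each group that had such kidneys came from those with under 5% unmapped reads, 50.7 and 56.6 CPM in *Cxcl12* KO, 53.5 and 56.7 CPM in *Myc* KO and 48.6 and 51.6 CPM in *Myc* control. Within the kidneys with over 5%, *Acvr2a* ran from 40.7 to 47.4 CPM over all 4 groups. *Acvr2a* overlaps *Orc4* on the opposite strand, with the same limit as for *Tgfb3*.

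**Figure D2:**
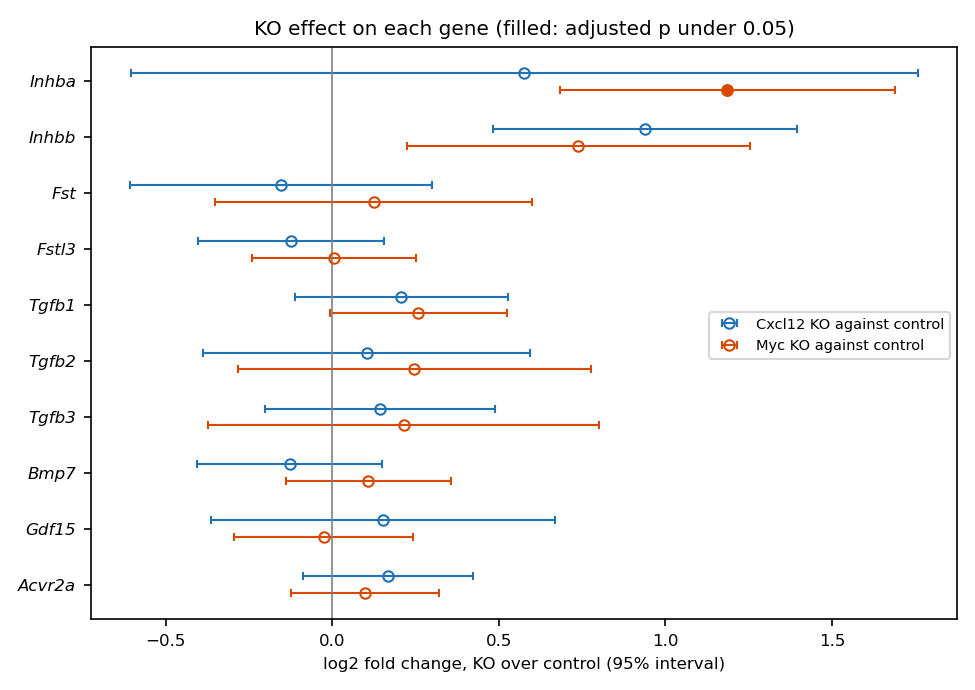
The log2 fold change of each gene, KO over control, is plotted with its 95% interval for the *Cxcl12* cohort in blue and the *Myc* cohort in orange, and a filled point marks an adjusted p under 0.05. *Inhba* in the *Myc* cohort (1.19) is the only filled point, the intervals of *Inhbb* (0.48 to 1.40 and 0.23 to 1.25) lie above 0 in both cohorts, and the other intervals include 0.

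Over the 10 genes the median log2 fold change was 0.15 for *Cxcl12* KO and 0.17 for *Myc* KO, against 0.001 and -0.001 over all genes tested. Fitted values were above 0 for 7 of the 10 in *Cxcl12* KO and 9 of the 10 in *Myc* KO kidneys, compared with 50.2% and 49.9% of all genes. At an unadjusted p under 0.05, 1 gene was higher in *Cxcl12* KO and 2 in *Myc* KO kidneys, and 0 were lower, beside 13% and 21.9% of all genes in either direction. These counts describe a list chosen with results known.

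Per kilobase of exon (RPKM), the levels of the 10 genes in injured kidneys spanned a wide range. *Gdf15* was highest with a mean of 102 RPKM over the 18 kidneys, and *Inhbb* followed with 25.3 RPKM. *Tgfb1* had 11.4, *Bmp7* 8.83, *Acvr2a* 8.11, *Fstl3* 5.97, *Fst* 3.42 and *Tgfb3* 2.14 RPKM. *Inhba* and *Tgfb2* were lowest with 0.928 and 0.716 RPKM. *Inhbb* thus exceeded *Inhba* in level in every group, by group means of 12.1 against 0.592 RPKM in *Cxcl12* control, 23.3 against 0.902 RPKM in *Cxcl12* KO, 22.7 against 0.636 RPKM in *Myc* control and 37.8 against 1.45 RPKM in *Myc* KO kidneys. Among neighbours in this order, *Gdf15* lay above *Inhbb*, *Acvr2a* above *Fstl3*, *Fstl3* above *Fst*, *Fst* above *Tgfb3* and *Tgfb3* above *Inhba* in each of 18 kidneys. *Inhbb* lay above *Tgfb1* in 17 kidneys. *Tgfb1* lay above *Bmp7* in 14, *Bmp7* above *Acvr2a* in 13 and *Inhba* above *Tgfb2* in 10, so the order of these 3 pairs varied between kidneys. Within groups, *Tgfb1* and *Bmp7* overlapped except in *Myc* KO kidneys, with 12.3 to 14.9 against 6.64 to 10.8 RPKM. *Bmp7* and *Acvr2a* overlapped except in *Cxcl12* controls, with 8.48 to 11.1 against 7.20 to 7.55 RPKM. *Inhba* and *Tgfb2* overlapped in all 4 groups, with means of 1.45 ± 0.386 and 0.816 ± 0.291 RPKM (SD, n = 5) in *Myc* KO kidneys.

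Among the genes whose levels followed *Inhba* most closely within the groups were *Ccl2*, a monocyte chemokine, with a Pearson r of 0.863, and *Slc2a6*, a sugar transporter, with 0.858. These are descriptions over 18 kidneys after the 4 group means had been removed, picked from the highest of 13767 genes, and the kidneys share their mapping classes. Neither passed the threshold in either cohort, with log2 fold changes in *Myc* KO of 0.23 for *Ccl2* and 0.41 for *Slc2a6*. Their mean levels were low, 7.60 CPM for *Ccl2* and 1.15 CPM for *Slc2a6*, the latter close to the cut of 1 CPM.

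Of 80 other genes of the pathway, 70 were tested for *Cxcl12* KO and 69 for *Myc* KO, and 0 were called in either by edgeR's test at an adjusted p under 0.05. DESeq2 called 5 for *Cxcl12* KO and 10 for *Myc* KO, beside 2.34% and 7.63% of all genes. At an unadjusted p under 0.05 there were 12 higher and 4 lower in *Cxcl12* KO and 18 higher and 2 lower in *Myc* KO kidneys, beside 13% and 21.9% of all genes in either direction. Fitted values were above 0 for 42 of 70 and 55 of 69 genes, with medians of 0.12 and 0.23, beside the medians of 0.001 and -0.001 over all genes. The difference between the KO effects passed the threshold for 0 of 71 genes.

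By role, the other ligands were centred near 0, with medians of 0.05 for *Cxcl12* KO and -0.04 for *Myc* KO over 9 and 8 genes tested. *Gdf10*, a ligand of the bone morphogenetic protein branch, had the largest value with a mean CPM of at least 1 in both cohorts, -0.51 (edgeR adjusted p = 0.264) in *Cxcl12* KO and -0.34 (edgeR adjusted p = 0.384) in *Myc* KO. *Inha*, the inhibin alpha subunit that pairs with the beta subunits to form inhibins, was tested in the *Cxcl12* cohort only, with 0.33 (edgeR adjusted p = 0.776). *Inhbc*, *Inhbe*, *Nodal* and *Mstn* were under the filter in both.

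Receptors had medians of 0.04 and 0.18, with all 11 tested above 0 in the *Myc* cohort. *Tgfbr1*, the type I receptor of TGF-beta, had the largest value in both, 0.48 (edgeR adjusted p = 0.325) in *Cxcl12* KO and 0.40 (edgeR adjusted p = 0.235) in *Myc* KO. *Tgfbr1* ran from 187 to 389.9 CPM in *Cxcl12* KO against 184 to 212 CPM in *Cxcl12* controls, so the groups overlapped. *Acvr1b*, the type I partner of activins, had 0.12 and 0.30, neither past the threshold.

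Among secreted antagonists and latency proteins, *Sostdc1*, which binds bone morphogenetic proteins, had the largest value in the *Cxcl12* cohort, -1.07 (standard error 0.284, edgeR adjusted p = 0.162). All *Cxcl12* KO kidneys, with 10.4 to 30.8 CPM of *Sostdc1*, lay below the controls with 39.8 to 48.6 CPM. The share of all genes with all KO kidneys below all controls was not counted. In the *Myc* cohort the value of *Sostdc1* was -0.74 (edgeR adjusted p = 0.064), with 8.75 to 17.0 CPM in KO and 16.8 to 29.9 CPM in control kidneys. *Nog*, noggin, another antagonist of bone morphogenetic proteins, had the largest value in the *Myc* cohort, 0.99 (standard error 0.287, edgeR adjusted p = 0.0963), at a low level of 1.92 ± 0.573 CPM in KO (SD, n = 5) and 0.949 ± 0.309 CPM in control kidneys (SD, n = 5).

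The SMAD proteins and their regulators had medians of 0.14 and 0.24, with 11 and 12 of 14 genes above 0. *Tgif1*, a corepressor of SMADs, had 0.55 (edgeR adjusted p = 0.0942) in *Cxcl12* KO, where 91.3 to 117 CPM in KO kidneys stood above 61.1 to 76.2 CPM in controls. In that cohort 4.96% of all genes had all KO kidneys above all controls. *Smad7*, an inhibitory SMAD that is induced by TGF-beta, had 0.41 (edgeR adjusted p = 0.0585) in *Myc* KO and -0.03 in *Cxcl12* KO. *Smurf1*, a ubiquitin ligase that acts on SMADs and receptors, was the only one of the 80 with all KO kidneys above all controls in both cohorts, with 61.3 to 79.7 against 53.2 to 59.3 CPM and 71.5 to 78.7 against 54.6 to 68.5 CPM. Over all genes, 0.373% had this pattern in both cohorts. *Smurf1* was singled out after its values were seen.

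The target genes had medians of 0.03 and 0.31. *Id4*, a target of bone morphogenetic proteins, had the largest value in the *Myc* cohort, 0.51 (edgeR adjusted p = 0.212). The genes of this list are also regulated by other pathways, and their values are no measure of SMAD activity.

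**Figure D3:**
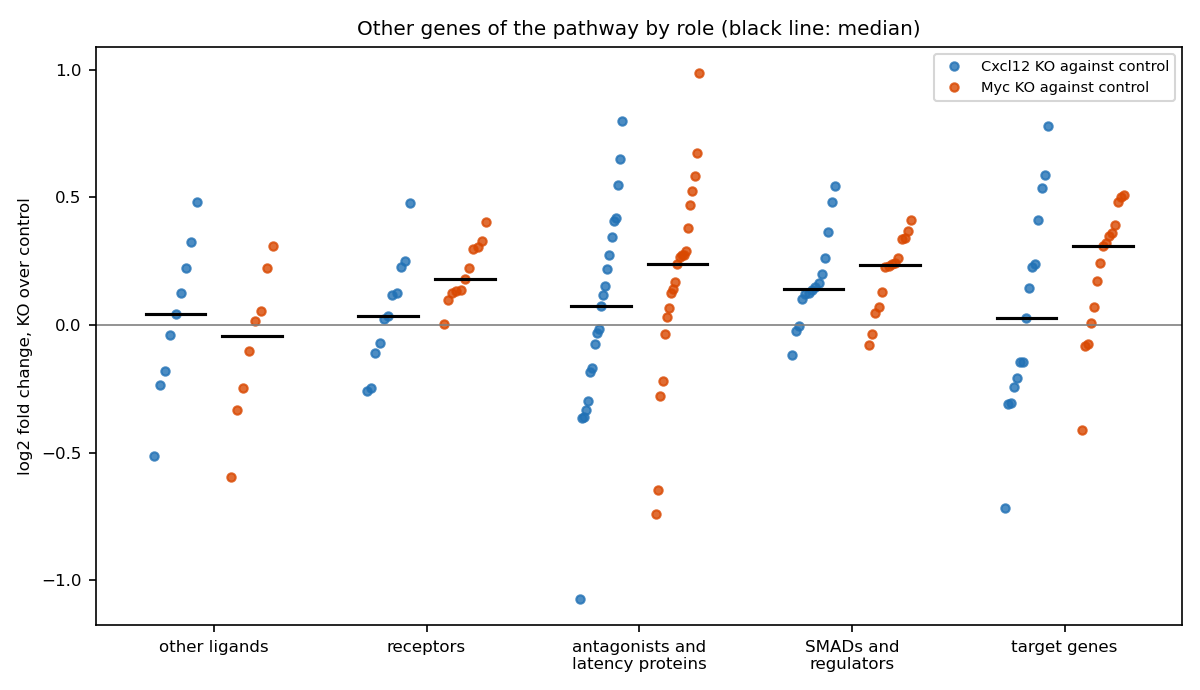
Each point is the log2 fold change of 1 tested pathway gene, KO over control, in blue for the *Cxcl12* and in orange for the *Myc* cohort, sorted within each role, with the median as a black line. In the *Myc* cohort the medians of the receptors (0.18), antagonists and latency proteins (0.24), SMADs and regulators (0.24) and target genes (0.31) lie above 0, and that of the other ligands (-0.04) lies close to it.

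In the mean of both KO effects, 9 of 71 pathway genes passed the threshold, 7 higher and 2 lower, beside 3.93% of all genes. These 9 were named after their values had been seen. Higher were *Nog* with a mean effect of 0.90 log2 units, *Lrrc32*, which holds latent TGF-beta at the cell surface, with 0.57, *Itgav*, the integrin subunit that takes part in its activation, with 0.40, *Tgif1* with 0.40, *Smad3* with 0.37, *Smad1* with 0.36 and *Smurf1* with 0.26. Lower were *Sostdc1* with -0.91 and the collagen gene *Col1a1* with -0.56. *Smad3* had 132 to 137 CPM in *Cxcl12* controls and 162 to 186 CPM in *Cxcl12* KO kidneys, and *Smad1* 36.1 to 40.4 and 47.8 to 62.2 CPM. Neither overlapped in that cohort, where 4.96% of all genes had all KO kidneys above all controls. Both overlapped in the *Myc* cohort. *Smad3* had 114 to 214 CPM in *Myc* control and 175 to 250 CPM in *Myc* KO kidneys, and *Smad1* 41.2 to 65.1 and 53.4 to 65.6 CPM. *Col1a1* had 61.6 ± 22.3 CPM in *Cxcl12* control (SD, n = 3), 37.5 ± 7.62 CPM in *Cxcl12* KO (SD, n = 5), 42.8 ± 7.29 CPM in *Myc* control (SD, n = 5) and 32.1 ± 3.40 CPM in *Myc* KO kidneys (SD, n = 5). Without *Cxcl12* control replicate 1 the count of 9 fell to 0, and without *Myc* control replicate 3 it was 17.

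Summed marker levels of other cells are given here, and their part in the values above was not tested. In either cohort 0 genes of these lists were called. In the mean effect 1 gene each of the injured tubule, endothelial and neutrophil lists was called higher. Of 4 markers of the loop of Henle and distal tubule, not summed here, 1 was called lower in the mean effect. All 4 had a fitted value below 0 in *Cxcl12* KO, and 3 had one above 0 in *Myc* KO. Over all genes 3.93% were called in the mean effect in either direction. The summed proximal tubule markers, 47.9% of them *Slc34a1*, lay wholly below the controls in *Cxcl12* KO as given above. Taken singly, 1 of the 6 genes did so. All 6 had a fitted value below 0 there, 3 of them at an unadjusted p under 0.05, beside 13% of all genes in either direction. In the *Myc* cohort the sum ran from 3418 to 4110 CPM in control and from 3163 to 4872 CPM in KO kidneys. Collecting duct markers, with *Aqp2* making up 80.6% of the mean sum, ran from 399 to 673 CPM in *Cxcl12* control and from 288 to 623 CPM in *Cxcl12* KO kidneys. All KO kidneys lay below all controls for 2 of these 4 genes. The share of all genes with all KO kidneys below all controls was not counted, for these or for the proximal tubule genes. For KO above control it was 4.96% in this cohort. Summed over 6 genes, endothelial markers ran from 593 to 1001 CPM in *Myc* control and from 798 to 1170 CPM in *Myc* KO kidneys. Neutrophil markers ran from 14.8 to 20.5 CPM in *Cxcl12* control and from 23.3 to 98.2 CPM in *Cxcl12* KO kidneys, with 36.5 to 166 CPM in *Myc* control and 104 to 194 CPM in *Myc* KO kidneys. Of the 5 neutrophil genes, 2 were under 1 CPM in each group, *Mpo* included. In *Cxcl12* KO all 3 tested neutrophil genes had a fitted value above 0, with a median of 1.65. All 3 had an unadjusted p under 0.05 in edgeR's test, beside 13% of all genes. All KO kidneys lay above all controls for 2 of them, beside 4.96% of all genes. In *Myc* KO all 3 tested were above 0, with 0 at that p. Macrophage markers ran from 88.3 to 109 CPM in *Cxcl12* control and from 74.3 to 109.8 CPM in *Cxcl12* KO, and from 92.8 to 124 CPM in *Myc* control and from 81.8 to 129 CPM in *Myc* KO kidneys, overlapping in both cohorts. Injured tubule markers ran from 12640 to 19613 CPM in *Myc* control and from 14392 to 22633 CPM in *Myc* KO kidneys, which overlapped, and 3 of the 6 had a fitted value below 0 in that cohort.

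**Figure D4:**
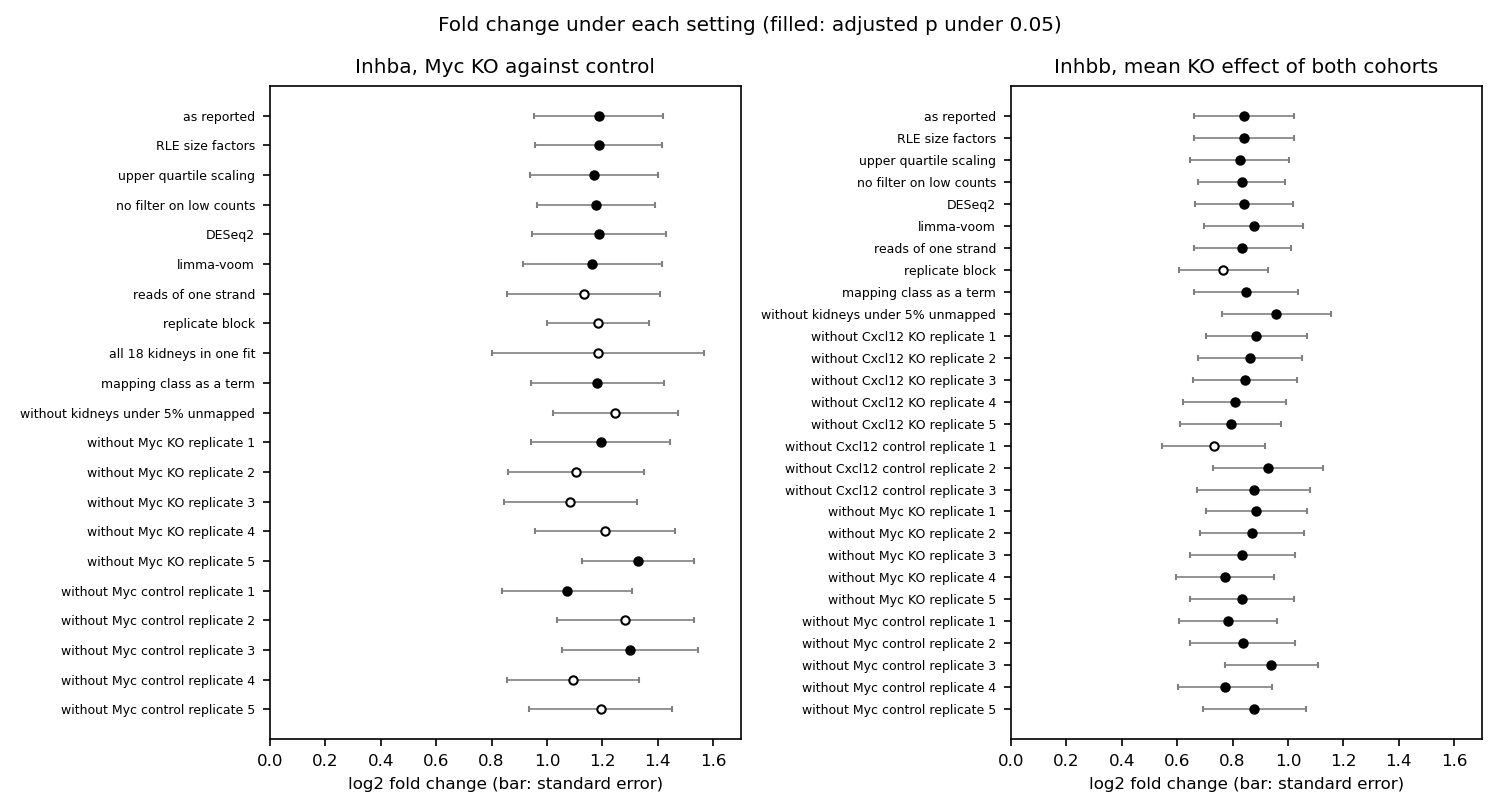
The log2 fold change of *Inhba* in the *Myc* cohort (left) and the mean KO effect on *Inhbb* over both cohorts (right) are plotted with their standard error under each setting and without each kidney, and a filled point marks an adjusted p under 0.05. *Inhba* stays between 1.07 and 1.33 and *Inhbb* between 0.73 and 0.96, while the adjusted p crosses 0.05 in 10 of 20 alternatives for *Inhba* and in 2 of 27 for *Inhbb*.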

How the data were processed

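The authors trimmed the reads with Trimmomatic 0.32, aligned them to GRCm38 with STAR 2.4.0, which also gave the gene counts, as the submitters' processing notes say, and deposited raw counts without normalization. The library kit was a proprietary one of the sequencing company. The annotation release behind the counts is not given in the sources used here. The column that ignores strand was used, since each strand column held about the same share of it. Identifiers were matched to GENCODE vM21 on GRCm38, which named 45143 of 45706 genes.

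Genes with low counts were removed with filterByExpr, library sizes scaled by TMM, and KO compared with control kidneys within each cohort by the quasi-likelihood test of edgeR 4.0.16 (R 4.3.3), without a replicate block, adjusted by Benjamini-Hochberg over all genes tested (threshold 0.05). The difference and the mean of the KO effects were fitted over all 18 kidneys with the 4 groups. Fold changes come from these fits. The standard error was the log2 fold change divided by the square root of F. Levels are CPM after 1 TMM scaling of all 18 kidneys, and RPKM divides by the exon union length in kilobases. Likeness used log2 CPM with a prior count of 2 among genes with a mean CPM of at least 1. Each sample was taken as 1 mouse. The labels do not tie samples to animals, and p-values measure the spread between these samples.

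The genes and lists were chosen with earlier results of these data known. Genes were named as follows: the 10 genes, the deleted genes, any pathway gene with an adjusted p under 0.05 in either cohort or in the difference, the largest value per role and cohort with a mean CPM of at least 1, and the 3 genes most like *Inhba*. Some genes that this rule names are not reported here. Genes outside this rule are given with a remark or as background examples of their list. The study's methods used voom and a batch correction, and limma-voom and a mapping class term were run here as alternatives, the classes being known only from the share of unmapped reads, with the cut set after those shares had been seen. The mean of both KO effects was also added after the data had been seen. The fits were also run on simulated data, with the same spread beyond counting noise for every gene and without mapping classes. That run checks the code and is no evidence for the results above. Alternatives used limma 3.58.1 and DESeq2 1.42.0, and tables and figures used Python 3.11.15, pandas 2.3.3 and matplotlib 3.10.9.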

Additional observations from a re-analysis of the deposited data

Results flagged for a closer look

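*Tgfb2* in *Cxcl12* KO replicate 3, with 5.76 CPM, stood further from the other 4 kidneys of its group, at 3.10 to 3.86 CPM, than Dixon's 95% value for 5 samples allows. It was the only such kidney over 30 groups of the 10 genes, and chance gives about 1 in 20 groups. Without this kidney the log2 fold change of *Tgfb2* in the *Cxcl12* cohort was -0.05 in place of 0.10.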

How the results depend on the processing

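*Inhba* rests on 32 to 258 reads per kidney and *Tgfb2* on 37 to 148, and the *Cxcl12* cohort has only 3 controls. The value of *Inhba* in *Myc* KO was 1.13 to 1.25 over 10 settings, with adjusted p of 0.0623 on reads of one strand, 0.0788 with all 18 kidneys in one fit and 0.0566 without the 6 kidneys under 5% unmapped. Genes called in *Cxcl12* KO numbered 214 without a filter, 355 with DESeq2, 25 with all 18 kidneys in one fit, 123 with the mapping class as a term and 80 without those 6 kidneys. Of the 10 genes, 1 was called, *Inhbb*, without a filter, with DESeq2 and with the class term. Pathway genes called there were 3, 5, 2 and 2 without a filter, with DESeq2, with the class term and without the 6 kidneys. Leaving out 1 kidney gave 0 to 15 genes, 0 of the 10 and 0 to 1 pathway genes.

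In *Myc* KO the genes called were 1139 with DESeq2, 683 with all kidneys in one fit, 954 with the class term and 8 without the 6 kidneys. Of the 10 genes, 2 were called with DESeq2 and 0 on reads of one strand, with all kidneys in one fit and without the 6 kidneys. Pathway genes were 1 without a filter, 10 with DESeq2, 3 with all kidneys and 7 with the class term. Leaving out 1 kidney gave 21 (without *Myc* KO replicate 2) to 877 genes (without *Myc* control replicate 3), 0 to 2 of the 10 and 0 to 7 pathway genes. For the difference of the effects, the genes were 6 with upper quartile scaling, 314 with DESeq2, 3 with limma-voom, 7 on reads of one strand, 133 with the class term, 44 without the 6 kidneys and 1 to 75 without 1 kidney. For the mean effect, DESeq2 gave 1500 genes, 2 of the 10 and 16 pathway genes, and leaving out the 6 kidneys gave 2 of the 10. Leaving out 1 kidney gave 38 (without *Cxcl12* control replicate 1) to 1570 genes (without *Myc* control replicate 3), 0 to 2 of the 10 and 0 to 17 pathway genes. The cause of these shifts was not tested.

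With the replicate number as a block the *Myc* cohort gave 18 genes and 0 of the 10 (*Inhba* 1.19, adjusted p 0.0513), the difference 1 gene and the mean effect 170 genes, 0 of the 10 (*Inhbb* 0.77, adjusted p 0.0509) and 3 pathway genes. The labels do not say whether same-numbered kidneys were paired. Their deviations correlated from -0.035 to 0.142 over 3 *Cxcl12* pairs and from -0.155 to 0.379 over 5 *Myc* pairs. The mean was 0.068 against -0.017 for other pairs in the *Cxcl12* cohort, and 0.056 against -0.012 in the *Myc* cohort. So few pairs cannot show whether these kidneys were paired or handled together. The KO kidney correlated best with its own number in 2 of 3 *Cxcl12* and 1 of 5 *Myc* pairs. With the block *Fst* in *Cxcl12* KO turned to 0.073.

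Values near 0 changed sign elsewhere. *Fstl3* in *Cxcl12* KO was 0.014 on reads of one strand. Without the 6 kidneys, *Myc* KO values were -0.20 for *Fst*, -0.033 for *Fstl3* and 0.111 for *Gdf15*. *Fstl3* in *Myc* KO was -0.009 with upper quartile scaling and -0.002 without a filter. Without 1 kidney the ranges were -0.054 to 0.198 for *Tgfb2* and -0.074 to 0.444 for *Gdf15* in *Cxcl12* KO, and -0.085 to 0.25 for *Fst*, -0.062 to 0.059 for *Fstl3* and -0.147 to 0.04 for *Gdf15* in *Myc* KO. No other of the 10 genes changed sign in either cohort.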
